A study of Mus musculus with 8 samples.

Results

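The genes described here are 32 components of the autophagy machinery, selected by gene name from the deposited table of estimated counts. All 32 were present among its 26709 genes, and all 32 passed the filter on low counts that left 19718 genes for testing. The libraries came from 8 mammary tumours that EMT6, an established mouse mammary carcinoma line, formed in syngeneic Balb/c hosts, with the genotype labelled WT. In 4 tumours the animals had received GrB-Fc-KS49. This human fusion protein contains granzyme B, the serine protease of cytotoxic lymphocytes, and its target is EMP2, a membrane protein. The other 4 tumours came from animals given IgG. Both agents were given 3 times over 10 days. The sources used here state neither the age of the animals nor the dose. They also do not say whether the tumours of a group grew in separate animals, and the p-values then reflect only how far these 8 tumours vary, which may be technical in part. The labels give the tissue as mammary tumour and the cells as epithelial, but markers of macrophages, T cells, fibroblasts and vessels were also detected. In such bulk samples, fewer cells of a type and less RNA per cell cannot be told apart.

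Autophagy delivers cytoplasmic material to lysosomes inside a double-membraned vesicle, the autophagosome. The ULK kinase complex starts the process, the class III phosphatidylinositol 3-kinase complex marks the forming membrane with phosphatidylinositol 3-phosphate, and WIPI proteins read that mark. A pair of ubiquitin-like conjugation systems then attaches the ATG8 proteins, which are the LC3 and GABARAP families, to the lipid phosphatidylethanolamine. Cargo receptors such as p62 bind both ubiquitinated cargo and membrane-bound ATG8, and the transcription factor TFEB activates autophagy and lysosome genes. Much of this pathway is regulated on the protein, by phosphorylation, lipidation and degradation, which RNA levels do not record.

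The ATG8 genes are close relatives, 3 of which had no overlap between the groups, and their coding sequences were compared to see whether reads of one could be counted for another. The protease ATG4 cuts each ATG8 precursor after a conserved glycine close to its end, and that glycine is later joined to the lipid. The last 30 bases before the glycine codon, the codon itself in capitals and the bases up to and including the stop codon are given here from the GENCODE M21 annotation of GRCm38.
Map1lc3a: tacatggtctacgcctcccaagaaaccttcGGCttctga
Map1lc3b: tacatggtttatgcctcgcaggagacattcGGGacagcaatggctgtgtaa
Gabarap: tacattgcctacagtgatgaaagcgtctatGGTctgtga
Gabarapl1: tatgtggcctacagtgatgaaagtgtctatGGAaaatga
Gabarapl2: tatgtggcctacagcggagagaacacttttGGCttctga
The glycine codon was number 120 in Map1lc3a and Map1lc3b and number 116 in the 3 GABARAP genes. In Map1lc3b, 15 bases lay between that codon and the stop codon, against 3 bases in each of the other 4 genes. The coding sequences of Map1lc3a and Map1lc3b were 76.5% identical, with a longest shared run of 15 bases. Gabarap and Gabarapl1 were 74.9% identical, with a longest shared run of 17 bases, and their last 30 bases before the codon look alike above. No stretch of 75 bases was shared between members of the family. Of the Gabarapl2 transcript, 13.3% of 75-base stretches also occurred in Gm3724, Gm5829 or Gm6051, so its counts are less certain than those of Map1lc3a, Map1lc3b and Gabarap, which shared none with any gene.

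Estimated counts per library summed to between 74.6 and 80.9 M with GrB-Fc-KS49 and between 74.0 and 82.6 M with IgG (M, units of 1000000 counts). No gene passed the adjusted threshold of 0.05 in edgeR's quasi-likelihood test with Benjamini-Hochberg adjustment, 0% of 19718, with 0.0619 as the lowest adjusted p. Taking an unadjusted p under 0.05 gave 6915 genes, 35.1% of those tested (17.3% higher and 17.8% lower with GrB-Fc-KS49). DESeq2, run on the same counts, called 4747 genes, 24.1%, and limma-voom called 1 gene and no member. The tumours given GrB-Fc-KS49 also differed from each other in the markers of other tissues. Summed levels of 8 skeletal muscle markers were 2583, 324, 396 and 42.7 TMM-scaled CPM (counts per 1000000, with libraries scaled by TMM, a trimmed mean of log ratios) in GrB-Fc-KS49 replicates 1 to 4, against 46.3 to 202 in IgG tumours. Summed levels of 7 measured keratinocyte markers were 142.9, 2387, 338 and 272 TMM-scaled CPM in the same 4 libraries, against 261 to 377 with IgG. Carcinoma epithelium markers summed to 725.9, 826.7, 475.3 and 595.5 in GrB-Fc-KS49 replicates 1 to 4, against 482 to 565 with IgG. The defining genes Krt8, Epcam and Cdh1 of this epithelium were detected in all 8 libraries. Cdh1 had 6.90, 36.9, 6.22 and 6.47 with GrB-Fc-KS49, so replicate 2 set its higher mean, against 4.05 to 9.07 with IgG. Krt8 had 595.4, 630.9, 390.8 and 495.5, against 414 to 468 with IgG. Adipocyte markers summed to 63.6 to 405 with GrB-Fc-KS49, against 46.6 to 79.1 with IgG. Fibroblast markers summed to 6270 to 17036 with GrB-Fc-KS49, against 8816 to 14920 with IgG, and endothelial markers to 194 to 296, against 144 to 277 with IgG. With GrB-Fc-KS49 the mean was higher for all 8 muscle, all 8 adipocyte and all 8 carcinoma markers, 6 of 7 keratinocyte, 6 of 8 endothelial and 3 of 8 fibroblast markers, and no marker was at 0 in every library. The part of these tissues in the results that follow was not tested.

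None of the 32 autophagy genes passed the adjusted threshold in edgeR's test, beside 0% of all tested genes. Their fold changes were small. The mean was higher with GrB-Fc-KS49 for 15 members and lower for 17, the median log2 fold change was -0.02 and the range -0.36 to 0.54, against a median of 0.03 over all tested genes. With an unadjusted p under 0.05, 5 members were higher and 7 were lower, beside 17.3% and 17.8% of all tested genes. In 5 members every GrB-Fc-KS49 tumour lay above every IgG tumour, namely Map1lc3a, Gabarap, Gabarapl2, Atg101 and Tfeb, beside 10.3% of all tested genes. In 6 members every GrB-Fc-KS49 tumour lay below, namely Ulk2, Rb1cc1, Pik3r4, Ambra1, Nbr1 and Tax1bp1, beside 15.3% of all tested genes. By role, all 5 ATG8 genes were higher in the mean, whereas 3 of 5 ULK complex genes, 4 of 6 lipid kinase genes, all 3 membrane genes and 4 of 5 cargo receptor genes were lower. With upper quartile scaling 7 members were higher and 4 lower, beside 21.6% and 13.6% of all tested genes, and that scaling put the all-gene median at 0.09. With a filter of 1 CPM in 4 libraries the counts were again 7 and 4, beside 19.4% and 19.2%. Lower members numbered 3 without the 2 libraries whose titles end in U, beside 13.1%, and 3 without GrB-Fc-KS49 replicates 1 and 2, also beside 13.1%.

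**Figure D1:**
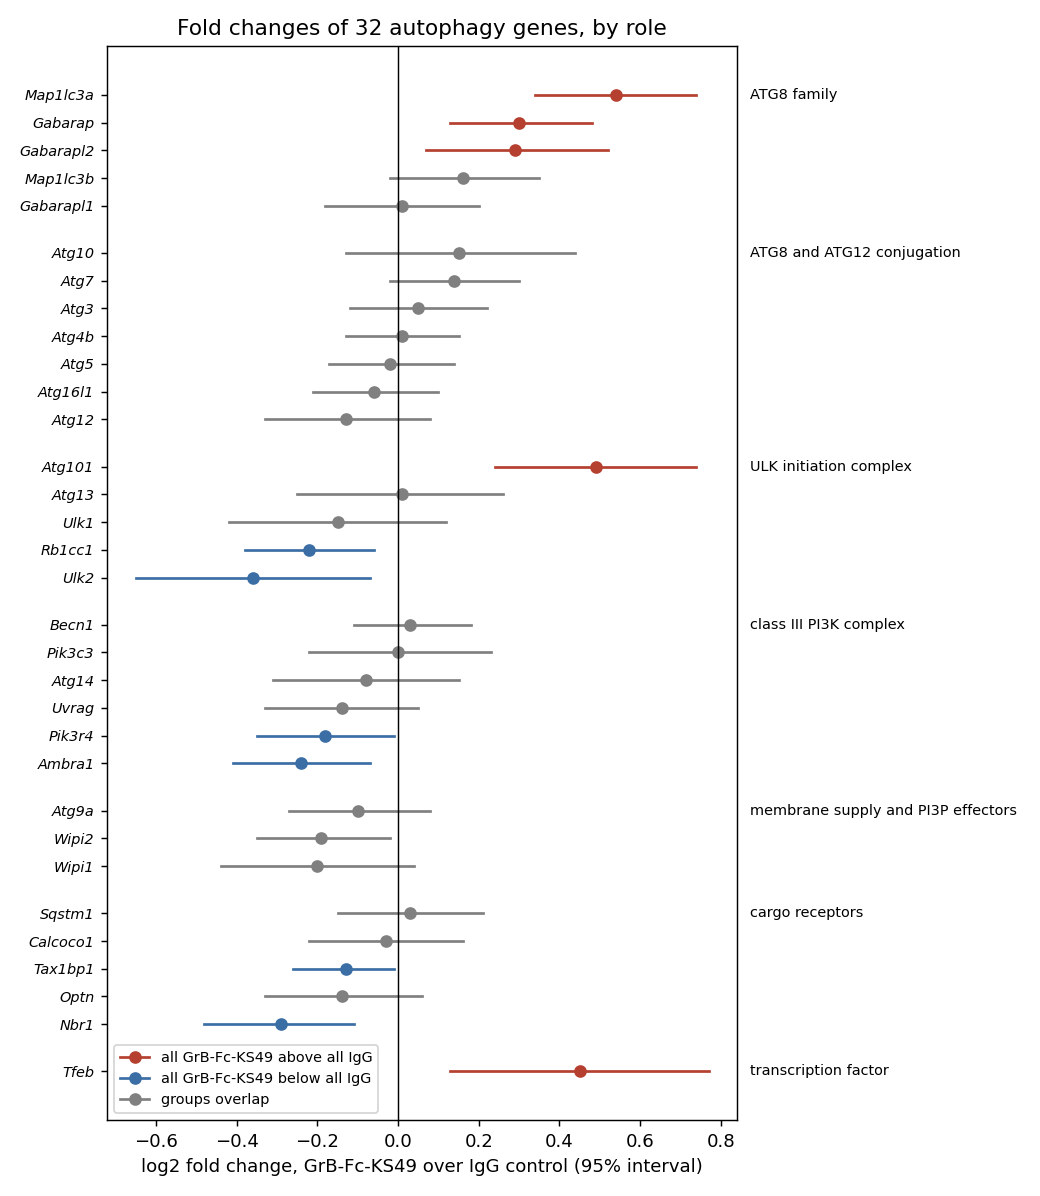
Log2 fold change of GrB-Fc-KS49 over IgG control for each of 32 genes, ordered by role, with its 95% interval from edgeR's quasi-likelihood fit (4 tumours a group). Red marks genes with every GrB-Fc-KS49 tumour above every IgG tumour, blue the reverse and grey those that overlap; red lies mostly in the ATG8 family and blue in the initiation, kinase and cargo genes.

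DESeq2 with the same adjustment called 9 of the 32 genes, beside 24.1% of all tested genes. The 5 called higher were Map1lc3a with an adjusted p of 8.86e-06, Atg101 with 0.00206, Gabarap with 0.00353, Tfeb with 0.0187 and Gabarapl2 with 0.0334, beside 11.5% of all tested genes. The 4 called lower were Nbr1 with a DESeq2 adjusted p of 0.0151, Tax1bp1 with 0.0201, Ambra1 with 0.0232 and Rb1cc1 with 0.03, beside 12.6% of all tested genes. In edgeR's test without GrB-Fc-KS49 replicate 1, 2 members were called, Map1lc3a and Atg101, both higher, beside 6.32% of all genes in either direction (2.23% higher and 4.09% lower). Without replicate 4, 4 members were called higher and 2 lower, beside 17.1% of all genes (7.12% higher and 10% lower).

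Among the ATG8 genes, Map1lc3a, which encodes LC3A, had the largest fold change. Its levels were 28.9, 25.3, 25.9 and 22.8 TMM-scaled CPM in the GrB-Fc-KS49 tumours, against 17.3, 16.6, 18.6 and 18.3 in the IgG tumours. The lowest GrB-Fc-KS49 tumour was above the highest IgG tumour. The mean was 25.7 ± 2.49 with GrB-Fc-KS49 and 17.7 ± 0.904 with IgG (SD, n = 4 each), a log2 fold change of 0.54 ± 0.09 (SE), 95% interval 0.34 to 0.74 and edgeR adjusted p of 0.0619. Map1lc3a (ENSMUSG00000027602) lies on chromosome 2 of GRCm39 from 155118217 to 155119993 on the plus strand. It was past the edgeR threshold when GrB-Fc-KS49 replicate 1 was left out (log2 fold change 0.48, adjusted p 0.0327) and when replicate 4 was left out (0.59, adjusted p 0.0233).

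Map1lc3b encodes LC3B, the form most used to follow autophagosomes, and was expressed well above its relative. Its levels were 134, 141, 140 and 125 TMM-scaled CPM with GrB-Fc-KS49 and 115, 122, 135 and 111 with IgG, so the groups overlapped. This gave a log2 fold change of 0.16, with a 95% interval from -0.02 to 0.35 and an edgeR adjusted p of 0.178. The span of Zcchc14, which had 66.38% as many counts, overlaps that of Map1lc3b on the other strand. No 75-base stretch of the longest coding Map1lc3b transcript occurred in transcripts of another gene on either strand. Whether counting used strand is not given. Within each library the ratio of Map1lc3a to Map1lc3b counts was 0.215, 0.18, 0.185 and 0.183 with GrB-Fc-KS49, against 0.151, 0.137, 0.138 and 0.165 with IgG. The groups did not overlap. These transcripts differ in length, at 1112 bases for Map1lc3a and 2633 for Map1lc3b. With trends on length and GC content removed, as described below, the log2 fold changes were 0.09 for Map1lc3a and -0.01 for Map1lc3b. The median of all covered genes was then -0.07.

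Gabarap, a member of the GABARAP arm that acts in later maturation and fusion, was the most highly expressed of the 5 per transcript length. Its TMM-scaled CPM were 312, 280, 278 and 250 with GrB-Fc-KS49, against 233, 226, 227 and 221 with IgG. The groups did not overlap, and the IgG tumours were close together. The log2 fold change was 0.30 ± 0.08 (SE), 95% interval 0.13 to 0.48 and edgeR adjusted p of 0.0619. Without GrB-Fc-KS49 replicate 4 it was 0.35 with an edgeR adjusted p of 0.0269. Gabarap lies on chromosome 11 from 69881969 to 69885777, plus strand, in GRCm39.

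Gabarapl2, which encodes GATE-16, had 68.5, 64.1, 53.3 and 54.1 TMM-scaled CPM with GrB-Fc-KS49 and 48.3, 49.9, 52.4 and 45.2 with IgG. The groups were apart by less than 1 CPM, at 53.3 in the lowest GrB-Fc-KS49 tumour and 52.4 in the highest IgG tumour. This gave a log2 fold change of 0.29 ± 0.10 (SE) and an edgeR adjusted p of 0.0817. Gabarapl1, the remaining member, had 64.0, 60.6, 60.9 and 72.2 TMM-scaled CPM with GrB-Fc-KS49 and 59.9, 70.6, 63.1 and 62.0 with IgG. Its values overlapped throughout and its log2 fold change was 0.01, with a 95% interval from -0.18 to 0.20. The ratio of Gabarap to Gabarapl1 counts was 4.87, 4.61, 4.56 and 3.47 with GrB-Fc-KS49 and 3.9, 3.2, 3.6 and 3.56 with IgG, and GrB-Fc-KS49 replicate 4 overlapped the IgG range. The median deviation of the 5 genes from the IgG mean was 0.46, 0.30, 0.22 and 0.15 log2 units in GrB-Fc-KS49 replicates 1 to 4, against -0.04 to 0.07 in IgG tumours. The summed level of 8 macrophage markers had the same order over these 4 tumours, at 3115, 2525, 1912 and 1443 TMM-scaled CPM, against 1109 to 1450 with IgG, as did Gabarap alone. Of these markers, C1qa, C1qb, C1qc and Apoe had no overlap between the groups, with C1qa at 281 to 762 against 154 to 238 with IgG. Csf1r, Adgre1, Cd68 and Mrc1 overlapped, with Csf1r at 158 to 214 against 137 to 202 with IgG. The part of macrophages in the ATG8 differences was not tested.

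**Figure D2:**
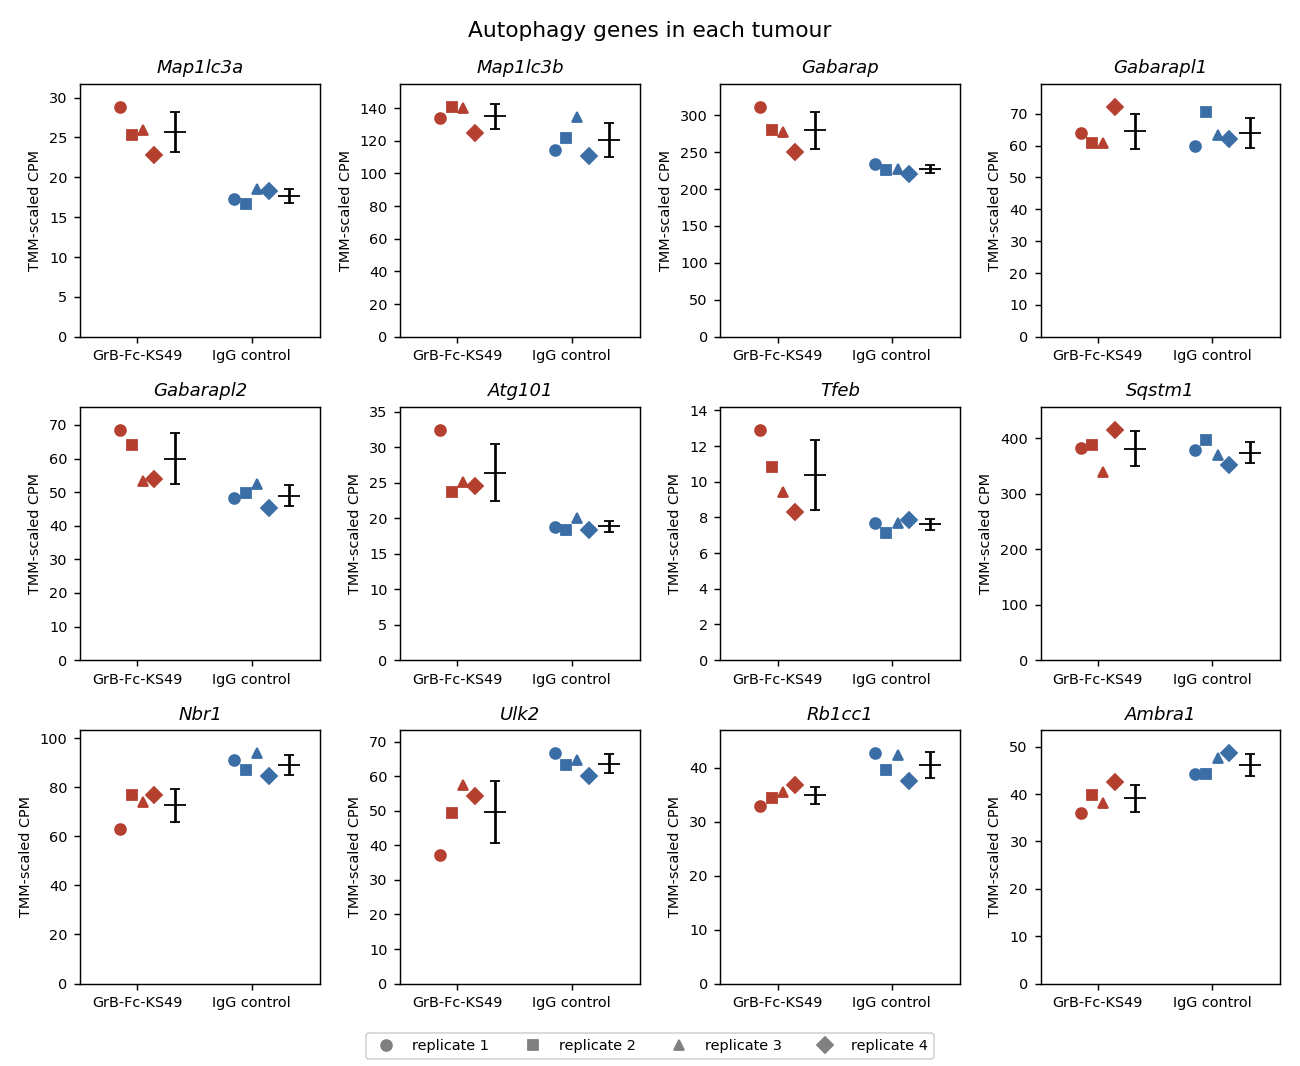
TMM-scaled CPM of 12 autophagy genes in each tumour, one panel a gene with its own axis from 0; points are libraries, with shape for the replicate, and bars give mean and SD (n = 4 a group). Map1lc3a, Gabarap, Gabarapl2, Atg101 and Tfeb lie higher in every GrB-Fc-KS49 tumour than in any IgG tumour, while Nbr1, Ulk2, Rb1cc1 and Ambra1 lie lower.

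The genes of the 2 conjugation systems showed little difference. ATG7 is the activating enzyme of both systems, ATG3 and ATG10 are the conjugating enzymes, and ATG12, ATG5 and ATG16L1 form the complex that directs ATG8 to the membrane. No member of the 7 had an unadjusted p under 0.05, and the median log2 fold change was 0.01. Atg5 had 39.3, 44.1, 41.2 and 40.3 TMM-scaled CPM with GrB-Fc-KS49 and 39.8, 44.9, 42.2 and 39.8 with IgG, a log2 fold change of -0.02 with a 95% interval from -0.17 to 0.14. Those groups overlapped fully. Atg7 had 41.8, 35.1, 38.7 and 37.7 with GrB-Fc-KS49 and 33.8, 34.4, 35.1 and 35.9 with IgG, with a log2 fold change of 0.14 and an interval from -0.02 to 0.30. Atg7 overlapped in 1 tumour, GrB-Fc-KS49 replicate 2. The remaining 5 had log2 fold changes from -0.13 for Atg12, with 41.8 ± 4.37 with GrB-Fc-KS49 and 45.6 ± 2.92 with IgG, to 0.15 for Atg10, with 3.63 ± 0.255 with GrB-Fc-KS49 and 3.26 ± 0.245 with IgG. Between them lay Atg3, with 33.7 ± 2.03 with GrB-Fc-KS49 and 32.5 ± 2.01 with IgG, and Atg16l1, with 27.6 ± 1.30 with GrB-Fc-KS49 and 28.7 ± 1.33 with IgG. Atg4b averaged 34.6 ± 1.22 with GrB-Fc-KS49 and 34.4 ± 0.939 with IgG. The span of Atg4b, whose protease cuts the precursors shown above, is overlapped on the other strand by that of Thap4. Thap4 had 127.3% as many counts. No 75-base stretch of the longest coding Atg4b transcript occurred in transcripts of another gene on either strand.

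Differences of opposite sign were found among the 5 genes of the ULK initiation complex. Atg101, which encodes the subunit that stabilises ATG13, had 32.4, 23.7, 25.1 and 24.5 TMM-scaled CPM with GrB-Fc-KS49, against 18.7, 18.3, 20.02 and 18.3 with IgG. The groups did not overlap, although GrB-Fc-KS49 replicate 1 stood far above the others of its group. The log2 fold change was 0.49 ± 0.11 (SE), 95% interval 0.24 to 0.74 and edgeR adjusted p of 0.0619, and it was 0.38 with an adjusted p of 0.0327 without that replicate. Without replicate 4 it was 0.52, adjusted p 0.0336. Atg101 lies on chromosome 15 from 101182153 to 101188826, plus strand.

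The kinase Ulk2 had 37.1, 49.3, 57.4 and 54.4 TMM-scaled CPM with GrB-Fc-KS49, against 66.6, 63.3, 64.6 and 60.1 with IgG. Every GrB-Fc-KS49 tumour was below every IgG tumour, and replicate 1 was lowest. This gave a log2 fold change of -0.36 ± 0.13 (SE), 95% interval -0.65 to -0.07 and edgeR adjusted p of 0.0898. The fold change was -0.25 without replicate 1, -0.18 without replicates 1 and 2, and -0.20 with trends on length and GC content removed. Rb1cc1, the scaffold FIP200 of the complex, had 32.9, 34.4, 35.5 and 36.8 with GrB-Fc-KS49, against 42.7, 39.7, 42.3 and 37.6 with IgG. The highest GrB-Fc-KS49 tumour, at 36.8, was just below the lowest IgG tumour, at 37.6. The log2 fold change was -0.22, edgeR adjusted p 0.0764. Ulk1, the other kinase, had 23.1, 33.3, 34.4 and 29.3 with GrB-Fc-KS49 and 32.5, 32.7, 33.6 and 34.7 with IgG, and its values overlapped. Its log2 fold change of -0.15 was -0.05 without GrB-Fc-KS49 replicate 1. Atg13 averaged 17.2 ± 2.67 with GrB-Fc-KS49 and 17.1 ± 0.931 with IgG. Within libraries, the ratio of Atg101 to Rb1cc1 counts was 0.985, 0.688, 0.707 and 0.667 with GrB-Fc-KS49 and 0.438, 0.461, 0.473 and 0.488 with IgG. The groups did not overlap. These transcripts differ in length, at 1270 bases for Atg101 and 7607 for Rb1cc1. With trends on length and GC content removed, the log2 fold changes were 0.06 for Atg101 and 0.08 for Rb1cc1, beside a median of -0.07 over all covered genes. The ratio of Atg101 to Atg13, its direct partner, was 1.93, 1.12, 1.64 and 1.57 with GrB-Fc-KS49 and 1.1, 1.13, 1.09 and 1.08 with IgG, so GrB-Fc-KS49 replicate 2 overlapped the IgG range. Ulk2 over Ulk1 was 1.6, 1.48, 1.67 and 1.86 with GrB-Fc-KS49 and 2.05, 1.93, 1.93 and 1.73 with IgG, and replicate 4 of GrB-Fc-KS49 overlapped.

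In the class III phosphatidylinositol 3-kinase complex, 4 of 6 genes were lower in the mean. Ambra1, a scaffold that links Beclin 1 to the complex, had 35.9, 39.8, 38.1 and 42.5 TMM-scaled CPM with GrB-Fc-KS49 and 44.2, 44.3, 47.6 and 48.6 with IgG. The groups did not overlap. This gave a log2 fold change of -0.24 ± 0.07 (SE) and an edgeR adjusted p of 0.0691, and without GrB-Fc-KS49 replicate 4 it was -0.29 with an adjusted p of 0.0397. Becn1, which encodes Beclin 1, had 92.3, 85.0, 82.6 and 80.5 with GrB-Fc-KS49 and 85.8, 81.3, 82.4 and 82.9 with IgG. These overlapped, and the log2 fold change was 0.03 with an interval from -0.11 to 0.18. Of its 75-base stretches 43.1% lie opposite Cntd1, which had 0.52% as many counts. The regulatory subunit Pik3r4 had 19.98, 22.1, 20.7 and 21.8 with GrB-Fc-KS49 and 23.0, 23.1, 26.4 and 23.1 with IgG, without overlap, a log2 fold change of -0.18 with an edgeR adjusted p of 0.133. The catalytic subunit Pik3c3 averaged 25.6 ± 2.18 with GrB-Fc-KS49 and 25.6 ± 2.77 with IgG. Atg14 and Uvrag encode alternative partners in the complex. Atg14 averaged 8.94 ± 0.431 with GrB-Fc-KS49 and 9.46 ± 0.931 with IgG, and Uvrag averaged 41.3 ± 4.17 with GrB-Fc-KS49 and 45.4 ± 1.93 with IgG.

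The 3 genes of membrane supply and phosphatidylinositol 3-phosphate reading were all lower in the mean. Wipi2, which recruits the ATG16L1 complex, had 85.1, 94.7, 90.7 and 102 TMM-scaled CPM with GrB-Fc-KS49 and 103, 108, 111 and 101 with IgG. Replicate 4 of GrB-Fc-KS49 overlapped replicate 4 of IgG. The log2 fold change was -0.19 with an interval from -0.35 to -0.02 and an edgeR adjusted p of 0.115. Wipi1 had 66.9, 73.7, 92.2 and 89.4 with GrB-Fc-KS49 and 94.9, 92.0, 91.4 and 92.6 with IgG, so that 2 of the 4 GrB-Fc-KS49 tumours set its log2 fold change of -0.20, which was -0.02 without them. Those tumours were replicates 1 and 2. Replicate 1 had the highest muscle marker sum, at 2583, and replicate 2 the highest keratinocyte marker sum, at 2387. They also had the highest sums of macrophage markers, 3115 and 2525, and of T cell markers, 74.0 and 44.9. The part of these tissues and cells was not tested. Atg9a, the lipid scramblase of the forming membrane, averaged 35.7 ± 3.16 with GrB-Fc-KS49 and 38.1 ± 0.587 with IgG, a log2 fold change of -0.10. Its counts are uncertain, since 40.7% of its 75-base stretches occur in other genes of the same strand, BC004004 among them.

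Of the 5 cargo receptor genes, 4 were lower in the mean, and the most abundant, Sqstm1, was not among them. Sqstm1, which encodes p62, had 382, 388, 340 and 415 TMM-scaled CPM with GrB-Fc-KS49 and 378, 397, 369 and 352 with IgG. These overlapped, and the log2 fold change was 0.03 with an interval from -0.15 to 0.21. Nbr1, a receptor for ubiquitinated cargo and peroxisomes, had 62.9, 76.9, 74.0 and 76.8 with GrB-Fc-KS49 and 91.2, 87.0, 93.8 and 84.4 with IgG. The groups did not overlap. This gave a log2 fold change of -0.29 ± 0.08 (SE), 95% interval -0.48 to -0.11 and edgeR adjusted p of 0.0628, and without replicate 4 of GrB-Fc-KS49 it was -0.33, adjusted p 0.0446. The ratio of Nbr1 to Sqstm1 counts was 0.165 to 0.218 with GrB-Fc-KS49 and 0.219 to 0.254 with IgG. Their transcripts differ in length, at 4789 bases for Nbr1 and 2673 for Sqstm1. With trends on length and GC content removed, the log2 fold changes were -0.17 for Nbr1 and -0.13 for Sqstm1. In that fit the median of all covered genes was -0.07. Tax1bp1 had 140.9, 138.1, 137.5 and 143.1 with GrB-Fc-KS49 and 152, 153, 159 and 149 with IgG, a narrow but non-overlapping difference of -0.13 log2 units (edgeR adjusted p 0.129). Optn, a receptor in mitophagy, averaged 16.9 ± 1.24 with GrB-Fc-KS49 and 18.6 ± 1.18 with IgG, a log2 fold change of -0.14. Calcoco1, a receptor for endoplasmic reticulum, averaged 48.5 ± 3.77 with GrB-Fc-KS49 and 49.6 ± 3.75 with IgG.

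Tfeb, the transcription factor, had 12.9, 10.9, 9.43 and 8.31 TMM-scaled CPM in GrB-Fc-KS49 replicates 1 to 4, against 7.71, 7.15, 7.70 and 7.86 with IgG. The groups did not overlap, although replicate 4 was close to IgG. The log2 fold change was 0.45 ± 0.14 (SE), 95% interval 0.13 to 0.77 and edgeR adjusted p of 0.072, and it was 0.33 without replicate 1, 0.23 without replicates 1 and 2, and 0.54 with an adjusted p of 0.0352 without replicate 4. Tfeb too had the order of the macrophage sum over the GrB-Fc-KS49 tumours, an order that C1qa and Cd68 alone of the 8 macrophage markers had. Summed T cell markers were 74.0, 44.9, 13.8 and 28.2 TMM-scaled CPM with GrB-Fc-KS49, against 11.3 to 17.2 with IgG. Lck made up most of the IgG sums, with 21.8, 14.9, 9.45 and 12.6 with GrB-Fc-KS49, against 9.48 to 11.6 with IgG. Cd3e had 10.9, 4.33, 0.44 and 2.69 with GrB-Fc-KS49, against 0.133 to 0.831 with IgG. The mean was higher with GrB-Fc-KS49 for 7 of 8 macrophage and 8 of 8 T cell markers. The groups overlapped for the macrophage markers Csf1r, Adgre1, Cd68 and Mrc1, and for every T cell marker through replicate 3. The part of these cells in the Tfeb difference was not tested. Tfeb lies on chromosome 17 from 48047955 to 48103344, plus strand, in GRCm39.

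**Figure D3:**
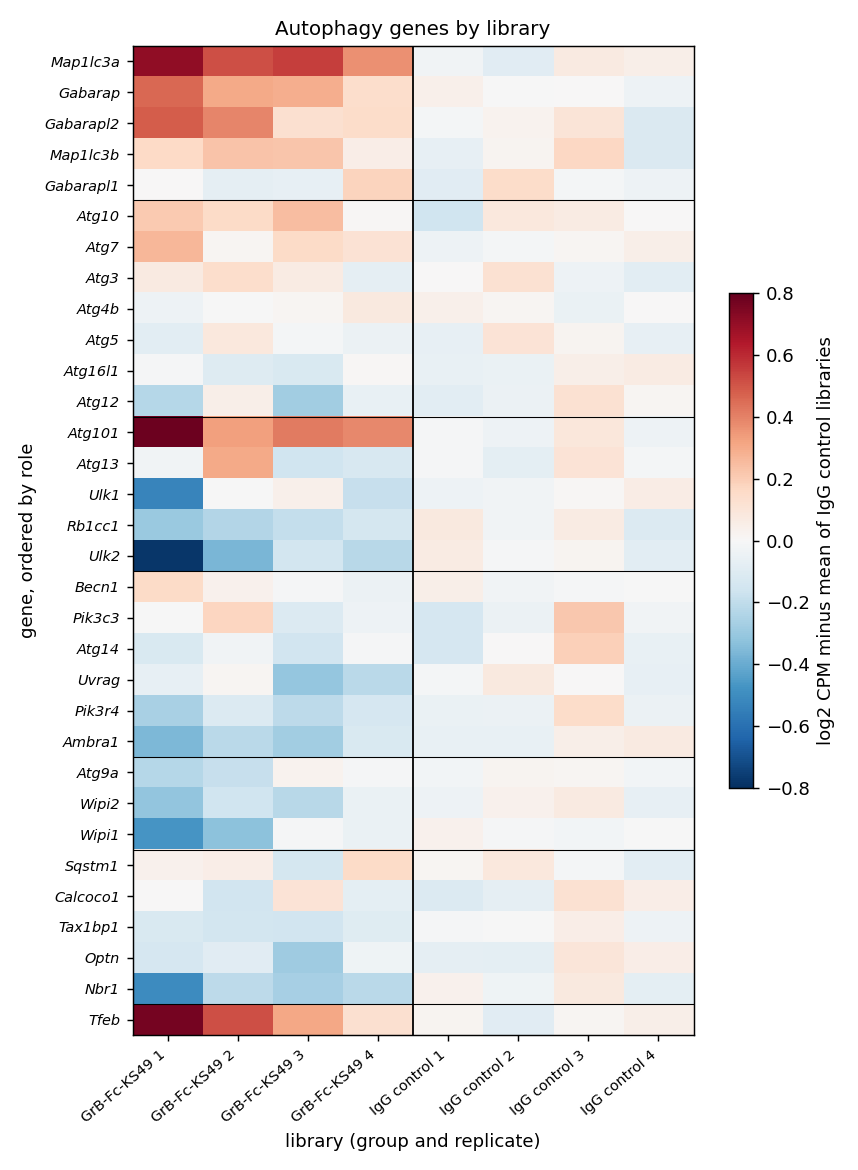
Log2 CPM of the 32 autophagy genes (rows, by role) in each of 8 libraries (columns), minus the mean of the IgG control libraries. GrB-Fc-KS49 replicate 1 carries the strongest colours, red for Atg101, Tfeb and Map1lc3a and blue for Ulk2, Ulk1 and Nbr1, and the IgG libraries are pale throughout.

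The E-box palindrome CACGTG, which TFEB and other factors can bind, was searched on both strands of RefSeq promoter windows (GRCm38.p6, 250 bases before to 50 after each start). Entries existed for 26 of the 32 members, but not for Map1lc3a, Atg12, Atg16l1, Rb1cc1, Becn1 and Pik3c3, whose promoters were not searched. The palindrome occurred in 13.3% of the members' promoters, against 9.41% of the promoters of tested genes and 7.15% of all promoters, in 4 genes, Atg3, Atg5, Atg7 and Atg14. None of these 4 had an unadjusted p under 0.05, and their log2 fold changes ran from -0.08 to 0.14. The longer letters TCACGTGA, which contain the palindrome, were found in 1 member, Atg3. That was 3.85% of the 26 members, against 1.99% of tested genes with an entry. The 150 bases before the start are shown for Atg3, with 2 palindromes, and Atg5, with 1 (capitals mark the palindrome, coordinates are GRCm38.p6).
Atg3, chr16:45158679-45158828, plus strand: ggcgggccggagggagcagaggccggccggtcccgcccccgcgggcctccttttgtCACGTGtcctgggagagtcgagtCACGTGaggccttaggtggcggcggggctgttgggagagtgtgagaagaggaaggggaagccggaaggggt
Atg5, chr10:44268189-44268338, plus strand: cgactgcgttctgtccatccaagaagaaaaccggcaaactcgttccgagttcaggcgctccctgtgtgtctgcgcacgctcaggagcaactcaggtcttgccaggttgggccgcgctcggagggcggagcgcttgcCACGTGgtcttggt

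Level differed far more between members than between groups. Per kilobase of transcript, Gabarap had 207 CPM with GrB-Fc-KS49 and 168 with IgG, and Sqstm1 had 142.6 with GrB-Fc-KS49 and 140 with IgG. Map1lc3b had 51.2 in GrB-Fc-KS49 and 45.7 in IgG tumours, Tax1bp1 had 42.6 in GrB-Fc-KS49 and 46.6 in IgG tumours, and Map1lc3a had 23.1 in GrB-Fc-KS49 and 15.9 in IgG tumours. Thus the most expressed ATG8 gene and the most expressed cargo receptor held the top ranks in both groups. At the low end, Tfeb had 4.43 CPM per kilobase with GrB-Fc-KS49 and 3.25 with IgG, and Atg10 had 2.29 with GrB-Fc-KS49 and 2.06 with IgG. The replicate spread was larger with GrB-Fc-KS49 in 24 of the 32 genes, beside 78.8% of all tested genes, with a median SD of log2 CPM of 0.114 with GrB-Fc-KS49 and 0.072 with IgG. GrB-Fc-KS49 replicate 1 was furthest from the IgG mean in 16 members, beside 58% of all tested genes.

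Fold change followed transcript length. The 8 shortest members, of 1112 to 2342 bases, were all higher in the mean with GrB-Fc-KS49 (median log2 fold change 0.30), and include 4 of the 5 ATG8 genes, Atg101 and Tfeb. The 8 longest, of 4765 to 7607 bases, were all lower (median -0.20), among them Ulk2, Rb1cc1, Ambra1 and Nbr1. Over all 32 members the Spearman correlation of log2 fold change with length was -0.81, and over 14508 covered protein-coding genes it was -0.46, a description across genes that share the same 8 libraries. The median over all covered genes ran from 0.456 in the shortest bin of length to -0.255 in the longest. Against the median of genes of like length, 16 of the 32 members were above and 16 at or below. Tfeb was 0.37 above, Map1lc3a and Atg101 were both 0.23 above, and the difference was -0.19 for Optn and -0.14 for Gabarapl1.

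When smooth trends on length and GC content were removed in the fit, the median of all covered genes was -0.07, against 0.03 without removal. The log2 fold change of Map1lc3a was then 0.09, of Atg101 0.06, of Gabarap -0.03, of Gabarapl2 0.11 and of Tfeb 0.24. No member was higher with an unadjusted p under 0.05, beside 7.26% of covered genes, against 6 members without removal, beside 17.9%. Ambra1 at -0.23, Optn at -0.23 and Nbr1 at -0.17 were lower at that level, beside 17.8% of covered genes, against 4 members without removal, beside 18%. In either direction that was 25.1% of covered genes with the trends removed and 35.8% without. The median of the 5 ATG8 genes was -0.01, against 0.31 on the same genes without removal. The smallest adjusted p over all covered genes was 0.155 in that edgeR fit. Rb1cc1, the longest member, had the opposite sign at 0.08. Ulk2 was at -0.20, Pik3r4 at -0.16 and Tax1bp1 at -0.05.

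**Figure D4:**
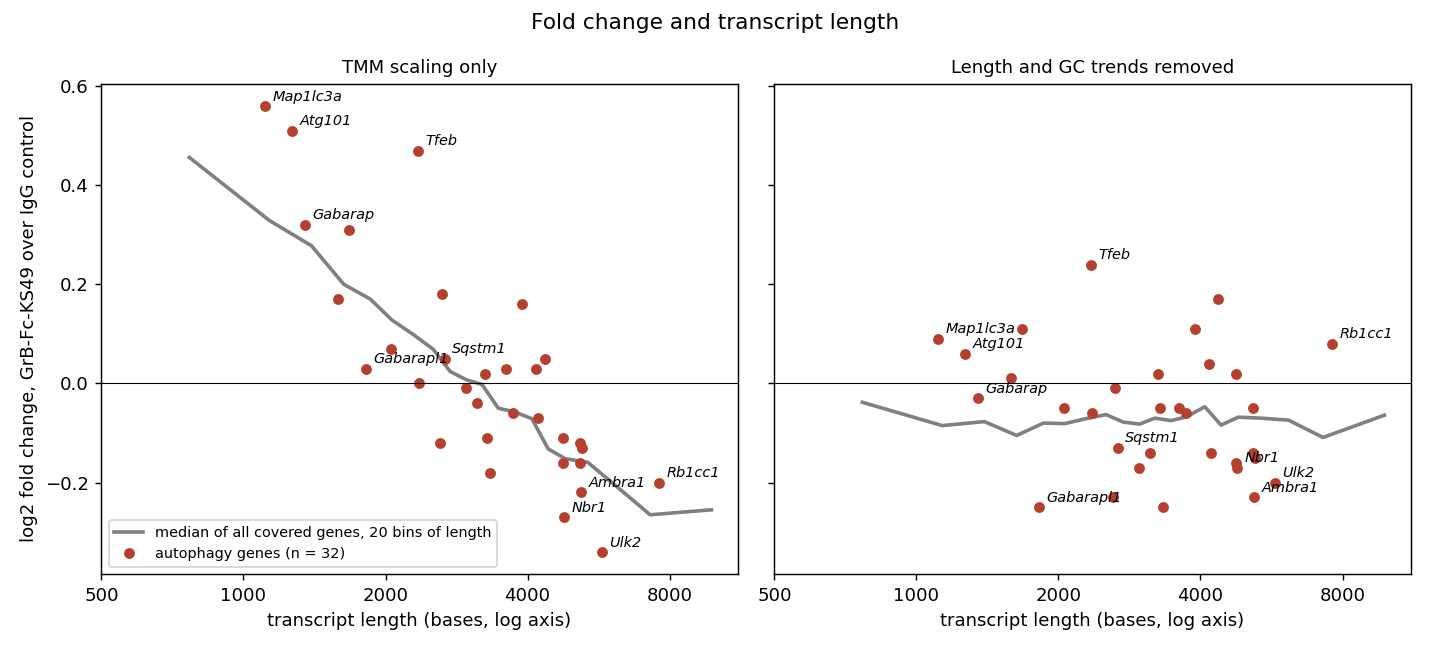
Log2 fold change of GrB-Fc-KS49 over IgG against transcript length (log axis) for 32 autophagy genes, red, and the median of all covered genes in 20 length bins, grey line; left with TMM scaling, right with length and GC trends removed. At left the members descend with the grey line from Map1lc3a to Ulk2; at right all 32 lie between -0.25 and 0.24.

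A further 63 genes of the autophagy pathway, all tested, were described in 4 groups. None passed the adjusted threshold in edgeR's test, while DESeq2 called 5 higher and 9 lower, beside 11.5% and 12.6% of all tested genes. In edgeR's fit 24 were higher and 39 lower in the mean, 7 were higher and 14 lower at an unadjusted p under 0.05, beside 17.3% and 17.8% of all tested genes, and the median was -0.08, against 0.03 over all tested genes. Of 13 autophagosome formation genes, 1 was higher and 3 lower at that level, beside 17.3% and 17.8%. Tecpr1, which binds ATG5 and ATG12 at lysosomes, averaged 26.1 ± 1.78 TMM-scaled CPM with GrB-Fc-KS49 and 22.1 ± 0.913 with IgG, and Wdr45, a WIPI relative, averaged 37.4 ± 10.9 with GrB-Fc-KS49 and 27.0 ± 4.42 with IgG. Atg2b, a lipid transfer protein, averaged 40.5 ± 5.09 with GrB-Fc-KS49 and 50.5 ± 1.85 with IgG. The protease gene Atg4c averaged 14.5 ± 1.79 with GrB-Fc-KS49 and 18.9 ± 1.84 with IgG. The edgeR adjusted p was 0.0718 for Tecpr1, 0.144 for Wdr45, 0.0655 for Atg2b and 0.0667 for Atg4c.

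Of 15 genes of fusion with lysosomes, 1 was higher and 3 lower at an unadjusted p under 0.05, again beside 17.3% and 17.8%. The SNARE gene Vamp8 had 122.5, 89.0, 70.4 and 74.4 TMM-scaled CPM with GrB-Fc-KS49 and 49.98, 58.2, 55.7 and 59.5 with IgG, without overlap, a log2 fold change of 0.67 that was 0.45 with the trends removed. Lamp1, a lysosomal membrane protein gene, averaged 800 ± 21.2 with GrB-Fc-KS49 and 789 ± 35.2 with IgG. Vps33a, of the tethering complex HOPS, averaged 39.8 ± 1.87 with GrB-Fc-KS49 and 47.8 ± 2.67 with IgG. Epg5, a tethering factor, averaged 20.3 ± 3.62 with GrB-Fc-KS49 and 25.6 ± 0.37 with IgG. The edgeR adjusted p was 0.0619 for Vamp8 and for Vps33a, and the log2 fold change of Lamp1 was 0.02.

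Among 15 selective receptors, 5 were higher and 2 lower at an unadjusted p under 0.05, beside 17.3% and 17.8% of all tested genes. Tex264, a receptor for the endoplasmic reticulum, averaged 60.9 ± 2.65 TMM-scaled CPM with GrB-Fc-KS49 and 48.7 ± 3.3 with IgG, and its log2 fold change of 0.32 was 0.04 with the trends removed. Fkbp8, a mitochondrial receptor, averaged 235 ± 22.1 with GrB-Fc-KS49 and 194 ± 4.07 with IgG, and its 0.28 was -0.03 with the trends removed. Ncoa4, the ferritin receptor, averaged 56.4 ± 9.48 with GrB-Fc-KS49 and 71.1 ± 7.56 with IgG, and Tbk1, a kinase that phosphorylates receptors, averaged 36.7 ± 2.83 with GrB-Fc-KS49 and 42.9 ± 2.31 with IgG. The edgeR adjusted p was 0.0619 for Tex264, 0.0628 for Fkbp8, 0.115 for Ncoa4 and 0.0849 for Tbk1. Upstream kinases and transcription factors counted 20 genes, of which none was higher and 6 lower at that level, beside 17.3% and 17.8% of all tested genes, with a median of -0.15. With the trends removed 1 was higher and 9 lower, beside 7.26% and 17.8% of covered genes. Rptor, a subunit of the mTOR complex, averaged 38.4 ± 5.0 with GrB-Fc-KS49 and 51.0 ± 2.54 with IgG. Tsc1, which restrains that complex, averaged 28.0 ± 2.85 with GrB-Fc-KS49 and 37.3 ± 2.47 with IgG, and both were at -0.41 log2 units with an edgeR adjusted p of 0.0619. The transcription factor Tfe3, close to Tfeb, averaged 106 ± 18.8 with GrB-Fc-KS49 and 89.9 ± 6.58 with IgG, and Prkag1, a subunit of the energy sensor AMPK, averaged 64.3 ± 2.53 with GrB-Fc-KS49 and 59.9 ± 3.24 with IgG. The kinase genes Mtor and Prkaa1, chosen after their values were seen, had log2 fold changes of -0.40 and -0.46.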

How the data were processed

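RNA from 8 tumours was enriched for mRNA and reverse transcribed with random primers in a stranded dUTP protocol, per the labels' protocols. Per the submitters' processing notes, bcl2fastq 2.19.1.403 demultiplexed reads and STAR aligned them to GRCm39; the quantifier, the annotation and whether counting used strand are not stated. The authors deposited estimated counts per gene, 46.0% to 47.8% of them whole numbers, and CPM computed from them after adding 0.0001. Every gene listed had at least 10 counts in total. Counts were rounded and fitted with edgeR 4.0.16 (R 4.3.3; TMM scaling, filterByExpr, robust quasi-likelihood test, Benjamini-Hochberg adjustment over 19718 genes, threshold 0.05). The common biological coefficient of variation was 27.8%. Standard errors are the log2 fold change over the root of F. DESeq2 1.42.0, limma 3.58.1 and a fit with length and GC trends removed (mgcv 1.9.3) were alternatives. Lengths come from GENCODE M21, which covered 99.8% of protein-coding genes tested. The fit was also run on counts simulated from the mean level and spread of each gene. That simulation held no trend on length and no tissue differences between tumours, and no result here rests on it. The members and gene lists were chosen with earlier results of these data known. All members are accounted for. Per-library values are printed by rule for 11 core genes and the 10 members with the smallest p. Those of Pik3r4, Tax1bp1, Wipi1 and single cell type markers were chosen after their values were seen. Other pathway genes are the 2 per list and direction with the smallest p at a mean of at least 1 CPM. The title suffix U on 1 library per group is not explained.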

Additional observations from a re-analysis of the deposited data

Results flagged for a closer look

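A tumour far from the others of its group was found in 4 of 96 groups of 4 tumours tested, where chance gives about 1 in 20. For Atg101, GrB-Fc-KS49 replicate 1 was highest at 32.4 TMM-scaled CPM, with the gap to the next tumour taking 0.833 of the group's range. For Pik3r4, IgG replicate 3 was highest at 26.4, with a share of 0.962. For Atg4c, GrB-Fc-KS49 replicate 1 was lowest at 11.8, with a share of 0.856. For Rptor, IgG replicate 3 was highest at 54.8, with a share of 0.833.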

How the results depend on the processing

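Adjusted calls, 0 with edgeR, were 4747 genes, 9 members and 14 pathway genes with DESeq2, and 1 gene with limma-voom. Leaving out 1 tumour gave 0 to 3447 genes, 0 to 6 members and 0 to 14 pathway genes. Members higher at an unadjusted p under 0.05, 5, were 0 with length and GC trends removed and 5 to 6 without 1 tumour. Members lower, 7, were 4 with upper quartile scaling, 4 at a filter of 1 CPM, 3 without the U libraries, 3 without GrB-Fc-KS49 replicates 1 and 2, 4 on covered genes only, 3 with trends removed and 2 to 7 without 1 tumour (2 without GrB-Fc-KS49 replicate 2 or IgG replicate 1, 4 without IgG replicate 2 or 3, 3 without IgG replicate 4). With upper quartile scaling 7 members were higher and 4 lower, beside 21.6% and 13.6% of all tested genes, and the all-gene median was 0.09. With the 1 CPM filter the counts were again 7 and 4, beside 19.4% and 19.2%. Pathway genes higher, 7, were 4 with trends removed and 5 to 9 without 1 tumour. Pathway genes lower, 14, were 9 without the U libraries and 8 to 17 without 1 tumour, 8 without IgG replicate 1 or 4. Over all tested genes the higher share was 17.3%, and 12.1% to 20.1% without 1 tumour. The lower share was 17.8%, and 11.4% to 18.9% without 1 tumour. It was 14.8% without GrB-Fc-KS49 replicate 2, and 11.4%, 13.8%, 13.9% and 13.4% without IgG replicates 1, 2, 3 and 4. Without the U libraries, and without GrB-Fc-KS49 replicates 1 and 2, it was 13.1%. On covered genes it was 18%. With trends removed the higher and lower shares were 7.26% and 17.8%. The cause of these shifts was not tested. The replicates 1 and 2 setting and the covered-gene setting were chosen after seeing the data.

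The median of all covered genes was -0.07 with trends removed, against 0.03 without removal. Log2 fold changes took the other sign with trends removed for Map1lc3b (-0.01), Gabarap (-0.03), Gabarapl1 (-0.25), Atg3 (-0.05), Atg12 (0.02), Atg13 (-0.05), Rb1cc1 (0.08), Sqstm1 (-0.13), Lamp1 (-0.16), Fkbp8 (-0.03) and Prkag1 (-0.20). They did so with no filter for Atg4b (-0.01) and Atg13 (-0.01), with upper quartile scaling for Atg5 (0.04) and Calcoco1 (0.03), at 1 CPM for Atg5 (0.02) and Calcoco1 (0.01), on log2(CPM + 1) for Atg5 (0.01) and with voom for Atg13 (-0.01). Without GrB-Fc-KS49 replicates 1 and 2 they did so for Atg13 (-0.14), Becn1 (-0.02), Atg9a (0.02) and Calcoco1 (0.02). Without 1 tumour the range was -0.05 to 0.06 for Gabarapl1, -0.01 to 0.04 for Atg4b, -0.03 to 0.02 for Atg5, -0.09 to 0.06 for Atg13, -0.01 to 0.07 for Becn1, -0.02 to 0.08 for Sqstm1 and -0.08 to 0.02 for Calcoco1. Of the other comparisons of single genes, 838 kept sign and side of the threshold and 40 passed it only in an alternative. A log2 fold change that rounded to 0.00 was counted as keeping its sign. No paired analysis was possible because replicate numbers are not in the labels. The p-values rest on 4 tumours a group with a common biological coefficient of variation of 27.8%.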
